A study of Mus musculus with 6 samples.

Results

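De novo fatty acid synthesis was examined through 10 genes, 8 coding for enzymes (Acly, Acss2, Acaca, Acacb, Fasn, Me1, Scd1 and Scd2) and 2 for transcription factors that control them (Srebf1 and Mlxipl). They were chosen by name as the lipogenic genes, each matched 1 row of the deposited table, and all 10 passed the low-count filter that left 18114 of 54385 rows for testing (54131 rows have a gene symbol). All gene positions are on GRCm38. The tissue was interscapular brown fat of C57BL/6N mice, by total RNA sequencing, with 3 wild-type libraries (labelled wt/wt) and 3 libraries of ADCY3∆AT mice. ADCY3∆AT is a knockout of Adcy3-AT, a truncated adenylyl cyclase 3 that cold induces in brown fat, and the labels do not say how the allele was made or in which cells it acts. All mice of both groups ate chow until 8 weeks of age, then a high-fat diet for 12 weeks, were 20 weeks old, and spent 24 h at 4 °C. No group kept warm or fed chow was analysed here, so neither the diet nor the cold is compared. The series text names the depot inguinal, and the sample labels, which were followed, name it interscapular.

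Fatty acid synthesis turns surplus carbon into fat. Citrate leaves the mitochondrion and ATP citrate lyase (Acly) splits it to cytosolic acetyl-CoA, which Acss2 can also make from acetate. Acetyl-CoA carboxylases (Acaca, Acacb) convert it to malonyl-CoA, fatty acid synthase (Fasn) builds palmitate from it with NADPH that malic enzyme (Me1) helps supply, and the stearoyl-CoA desaturases (Scd1, Scd2) introduce a double bond. SREBP-1 (Srebf1) and ChREBP (Mlxipl) are the insulin- and glucose-responsive factors that activate these genes, and brown fat in the cold is known for running synthesis and oxidation of fatty acids side by side.

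Promoters are shown for 4 genes because they cover the patterns described next: Fasn and Acly, which differed most between libraries, Acacb, which hardly differed, and Srebf1, which encodes a regulator of the others. Each runs 5′ to 3′ from 250 bases before to 50 bases after a RefSeq start site (GRCm38.p6), and capitals mark matches on either strand to the CCAAT box (CCAAT, bound by NF-Y), the GC box (GGGCGG, bound by Sp1), a sterol regulatory element (TCACNCCAC, bound by SREBP) or an E-box (CACGTG).
Fasn, chr11:120824498-120824797, minus strand: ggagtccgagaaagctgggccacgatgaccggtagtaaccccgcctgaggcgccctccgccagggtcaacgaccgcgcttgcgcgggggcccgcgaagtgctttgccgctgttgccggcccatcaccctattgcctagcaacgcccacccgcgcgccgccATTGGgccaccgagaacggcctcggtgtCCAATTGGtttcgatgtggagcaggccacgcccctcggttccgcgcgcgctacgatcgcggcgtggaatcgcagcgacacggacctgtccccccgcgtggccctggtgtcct
Acly, chr11:100527951-100528250, minus strand: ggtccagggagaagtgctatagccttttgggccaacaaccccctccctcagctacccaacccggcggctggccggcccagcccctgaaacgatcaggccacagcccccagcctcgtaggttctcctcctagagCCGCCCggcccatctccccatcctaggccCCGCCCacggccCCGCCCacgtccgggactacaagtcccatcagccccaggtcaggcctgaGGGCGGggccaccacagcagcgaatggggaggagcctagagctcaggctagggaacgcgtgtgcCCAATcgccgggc
Acacb, chr5:114165268-114165567, plus strand: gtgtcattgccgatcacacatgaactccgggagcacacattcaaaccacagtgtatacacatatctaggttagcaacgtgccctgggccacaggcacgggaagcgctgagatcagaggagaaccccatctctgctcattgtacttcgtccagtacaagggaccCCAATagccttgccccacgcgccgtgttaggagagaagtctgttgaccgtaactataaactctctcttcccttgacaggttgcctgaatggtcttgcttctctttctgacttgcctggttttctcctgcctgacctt
Srebf1, chr11:60222532-60222831, minus strand: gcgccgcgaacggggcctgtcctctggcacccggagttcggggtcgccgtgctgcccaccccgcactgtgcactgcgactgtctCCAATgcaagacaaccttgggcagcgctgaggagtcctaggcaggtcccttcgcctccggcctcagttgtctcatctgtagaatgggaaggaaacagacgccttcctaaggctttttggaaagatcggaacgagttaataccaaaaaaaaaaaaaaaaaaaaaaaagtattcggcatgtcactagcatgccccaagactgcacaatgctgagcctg

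The Fasn window held 3 CCAAT boxes, starting 90, 62 and 59 bases upstream of the start site, of which the last 2 overlap as an inverted pair. The Acly window held 4 GC boxes, 117, 88, 76 and 27 bases upstream, and 1 CCAAT box 38 bases into the transcript. The Acacb and Srebf1 windows shown held 1 CCAAT box each, 87 and 166 bases upstream, and no GC box. Srebf1 has 2 other RefSeq windows, with 2 GC boxes and 1 CCAAT box in one and 3 GC boxes in the other. None of the 4 windows held the sterol regulatory element or the E-box as spelled here. Over all 32851 RefSeq promoter windows of this length, 37.4% held a CCAAT box, 35.7% a GC box, 1.24% the sterol regulatory element and 7.15% the E-box. RefSeq windows were matched for 8 of the 10 genes, all but Scd1 and Scd2. Acaca's window held none of the 4 motifs, Acss2's held 5 GC boxes and 1 CCAAT box, and of the 12 windows of these genes only Mlxipl's held a sterol regulatory element (1 window) or an E-box (1 other window). Only the Fasn and Acly windows, the Srebf1 window shown and 1 Mlxipl window are set on the annotated gene start. The start sites used for Acacb, Acaca, Acss2 and Me1 lie inside the annotated gene, as do those of the other Srebf1 and Mlxipl windows. That of Acss2 (155518043, annotated start 155517948) and 1 of Me1 (86695914, annotated start 86695953) lie close to the annotated start. Those of Acaca (84195438, annotated start 84129672) and Acacb (114165518, annotated start 114146535) lie far inside the gene. The lack of motifs in the Acaca window therefore holds for 1 internal start site. These matches describe letters and not bound sites.

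The enzymes of the pathway, Acacb apart, were high in ADCY3∆AT replicates 1 and 2 and at wild-type level in ADCY3∆AT replicate 3. Fasn was 3.20 and 2.46 times the wild-type mean in replicates 1 and 2 and 1.00 times in replicate 3. Srebf1 was lower in all 3 ADCY3∆AT libraries than in any wild-type library, and Mlxipl and Acacb lay at the wild-type level. None of the 10 genes passed in edgeR's quasi-likelihood test after Benjamini-Hochberg adjustment over all genes, where 0.00552% of genes (1 of 18114) did. In bulk tissue, fewer cells of a type and less RNA per cell cannot be told apart.

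Library totals ranged from 44826777 to 54933588 estimated counts, and every one of the 10 genes had at least 3940 estimated counts in every library. Adcy3, the targeted gene, had 677, 728 and 652 CPM (counts scaled to a common library size with TMM factors) in wild type and 349, 342 and 506 CPM across ADCY3∆AT, so ADCY3∆AT replicate 3 was also the ADCY3∆AT library nearest to wild type for that row, which sums all transcripts of the gene (log2 fold change -0.78 ± 0.14, SE, edgeR adjusted p = 0.158). Adcy3 was called lower by DESeq2 (adjusted p = 4.23e-07), and by edgeR with no low-count filter (adjusted p = 0.00321) and without ADCY3∆AT replicate 3 (adjusted p = 0.00338). The brown fat markers Ucp1 (10327 to 10647 CPM in wild type, 9972 to 10243 CPM across ADCY3∆AT) and 9 others were all detected, with a summed level of 14203 to 14358 CPM for wild type, 13225 to 13565 CPM for ADCY3∆AT and 9 of 10 fold changes negative. The groups did not overlap in that sum, whose part in the result was not tested. The labels number the replicates without naming separate animals, so p-values measure the spread between these libraries, which may be partly technical.

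**Figure D1:**
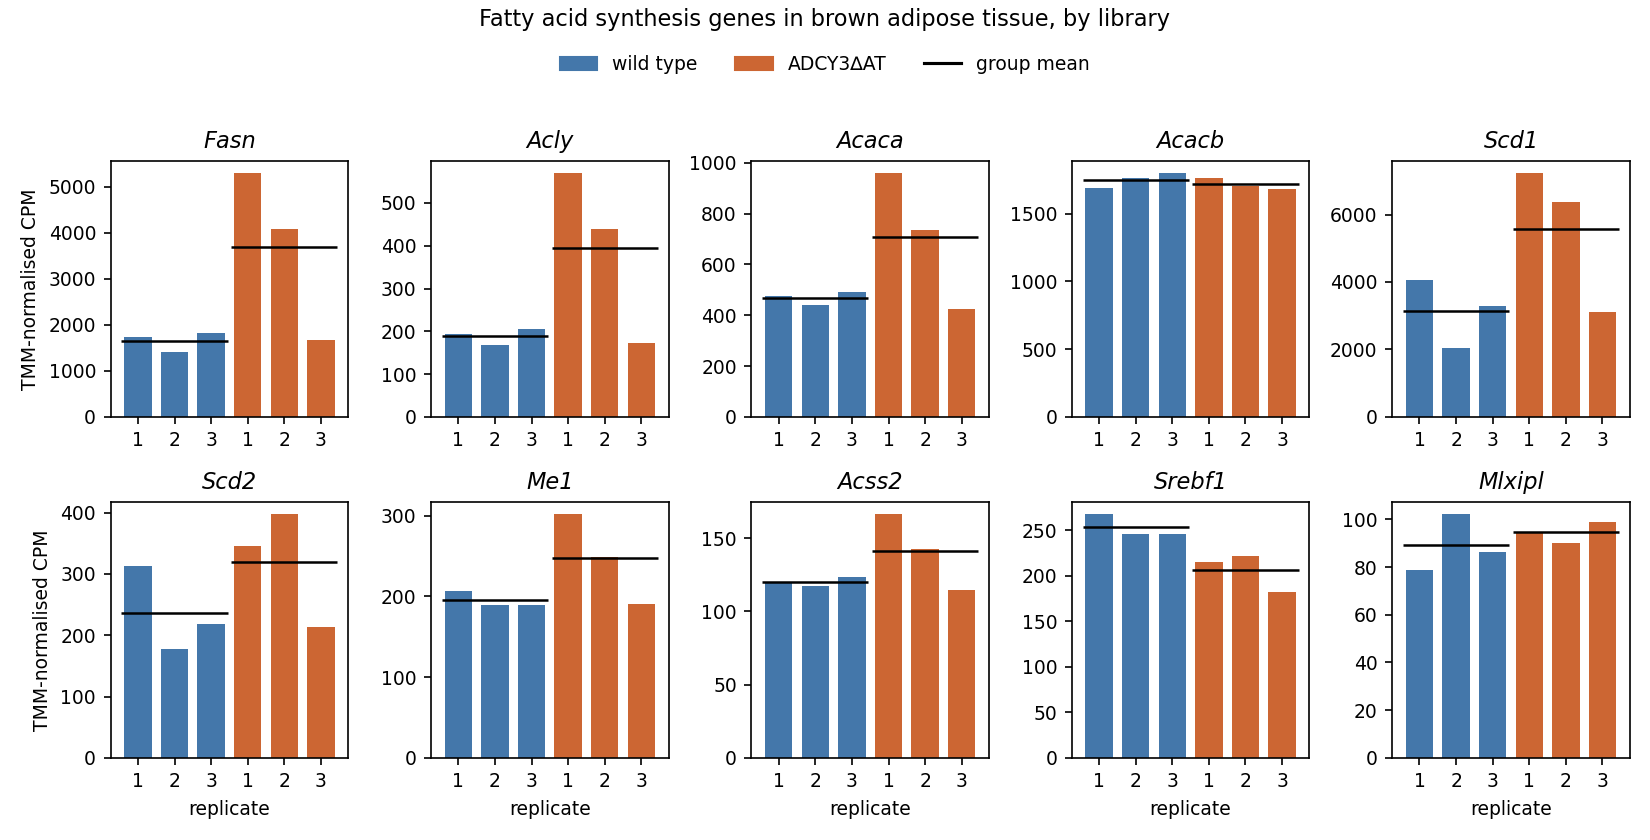
Bars give the TMM-normalised CPM of each gene in each of the 6 libraries (blue, wild type; orange, ADCY3∆AT; replicate number on the x axis), and black lines give the mean of each group of 3. Fasn stands at 5303 and 4080 CPM for ADCY3∆AT replicates 1 and 2 and at 1661 CPM in replicate 3, within the wild-type range, while Acacb is level in all 6 libraries.

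Acly (ENSMUSG00000020917, chr11:100476353-100528000, minus strand), which supplies most cytosolic acetyl-CoA, had 193, 167 and 207 CPM across wild type against 570, 439 and 173 CPM across ADCY3∆AT. ADCY3∆AT replicates 1 and 2 lay above every wild-type library and replicate 3 within the wild-type range. The log2 fold change was 1.06 ± 0.35 (SE, edgeR adjusted p = 0.338). Acss2 (ENSMUSG00000027605, chr2:155517948-155585724, plus strand), which makes acetyl-CoA from acetate, had 120, 117 and 123 CPM across wild type against 167, 143 and 115 CPM across ADCY3∆AT, so replicates 1 and 2 again lay above wild type, while replicate 3 lay just under it. Its log2 fold change was 0.24 ± 0.12 (SE, edgeR adjusted p = 0.516). Exons of Acss2 share 395 bases with those of Gss on the opposite strand, and the labels do not say that counting used the strand, so reads from that stretch cannot be assigned with certainty.

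The acetyl-CoA carboxylases are set side by side here, and the difference between their fold changes was not tested. Acaca (ENSMUSG00000020532, chr11:84129672-84401651, plus strand), the cytosolic isoform that feeds synthesis, had 474, 440 and 493 CPM across wild type against 960, 736 and 424 CPM across ADCY3∆AT, a log2 fold change of 0.59 ± 0.24 (SE, edgeR adjusted p = 0.424). ADCY3∆AT replicate 3 lay just under the lowest wild-type library. Acacb (ENSMUSG00000042010, chr5:114146535-114250761, plus strand), the isoform at the mitochondrial surface whose malonyl-CoA restrains fatty acid oxidation, had 1692, 1762 and 1801 CPM across wild type against 1761, 1707 and 1682 CPM across ADCY3∆AT. Its groups overlapped, with a log2 fold change of -0.03 ± 0.05 (SE, edgeR adjusted p = 0.867). Per kilobase of transcript, Acaca made up 19.8 ± 1.0% of the summed Acaca and Acacb level in wild type and 27.0 ± 7.4% in ADCY3∆AT (SD, n = 3 each). Its lowest ADCY3∆AT value, 18.9%, lay inside the wild-type range of 18.8% to 20.6%, and the highest was 33.5%.

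Fasn (ENSMUSG00000025153, chr11:120805846-120824547, minus strand), the multi-domain enzyme that assembles palmitate, had 1736, 1410 and 1832 CPM across wild type against 5303, 4080 and 1661 CPM across ADCY3∆AT. ADCY3∆AT replicate 3 lay between the wild-type libraries and replicates 1 and 2 lay above all of them. The mean of wild type was 1659 ± 221 CPM, that of ADCY3∆AT 3681 ± 1853 CPM (SD, n = 3 each), and the log2 fold change of 1.15 ± 0.35 (SE) did not pass (edgeR adjusted p = 0.310). As a share of all estimated counts, Fasn held 0.136% to 0.187% of a wild-type library and 0.521%, 0.414% and 0.169% of the ADCY3∆AT libraries. Me1 (ENSMUSG00000032418, chr9:86581371-86695953, minus strand), a cytosolic source of NADPH, had 207, 189 and 190 CPM across wild type against 302, 249 and 191 CPM across ADCY3∆AT. Of its ADCY3∆AT libraries 2 were above the wild-type range and 1 was inside it, for a log2 fold change of 0.34 ± 0.14 (SE, edgeR adjusted p = 0.436).

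Scd1 (ENSMUSG00000037071, chr19:44394455-44407879, minus strand), the main desaturase of fat tissue, had the highest level per kilobase of the 10 genes in both groups. It had 4044, 2050 and 3290 CPM across wild type against 7235, 6369 and 3107 CPM across ADCY3∆AT. Its wild-type libraries differed among themselves by 1.97 times, more than those of any other gene of the 10, and its log2 fold change was 0.83 ± 0.32 (SE, edgeR adjusted p = 0.408). Scd2 (ENSMUSG00000025203, chr19:44293674-44306864, plus strand), a close paralog, had 313, 177 and 219 CPM across wild type against 345, 398 and 214 CPM across ADCY3∆AT, and there ADCY3∆AT replicate 2 and not replicate 1 was highest. The log2 fold change of Scd2 was 0.43 ± 0.25 (SE, edgeR adjusted p = 0.575). Per kilobase, Scd2 made up 6.36 ± 0.77% of the pair in wild type and 5.02 ± 0.87% in ADCY3∆AT (SD, n = 3 each), ranges that overlapped. Reads from stretches that the desaturase paralogs share may have been divided between their rows.

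Srebf1 (ENSMUSG00000020538, chr11:60199089-60222581, minus strand), which encodes SREBP-1, had 268, 246 and 246 CPM across wild type against 215, 222 and 182 CPM across ADCY3∆AT. Of the 10 genes, Srebf1 alone had groups that did not overlap, and it lay lower in ADCY3∆AT, as did 8.83% of all genes without overlap, against 0 of 10 higher and 7.68% of all genes. Its log2 fold change was -0.29 ± 0.08 (SE), with an edgeR adjusted p of 0.269. DESeq2 called it lower (adjusted p = 0.0499), as it did 0.721% of the genes it tested. The 15 fits run gave Srebf1 an adjusted p from 0.0499 to 0.637. Srebf1 shares 109 exonic bases with Rai1 on the opposite strand, and the row sums its transcript forms, so SREBP-1a and SREBP-1c are not told apart. Mlxipl (ENSMUSG00000005373, chr5:135089890-135138382, plus strand), which encodes ChREBP, had 78.9, 102 and 86.2 CPM across wild type against 94.4, 90.3 and 98.9 CPM across ADCY3∆AT. Its ADCY3∆AT values all lay inside the wild-type range, with a log2 fold change of 0.08 ± 0.09 (SE, edgeR adjusted p = 0.779).

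**Figure D2:**
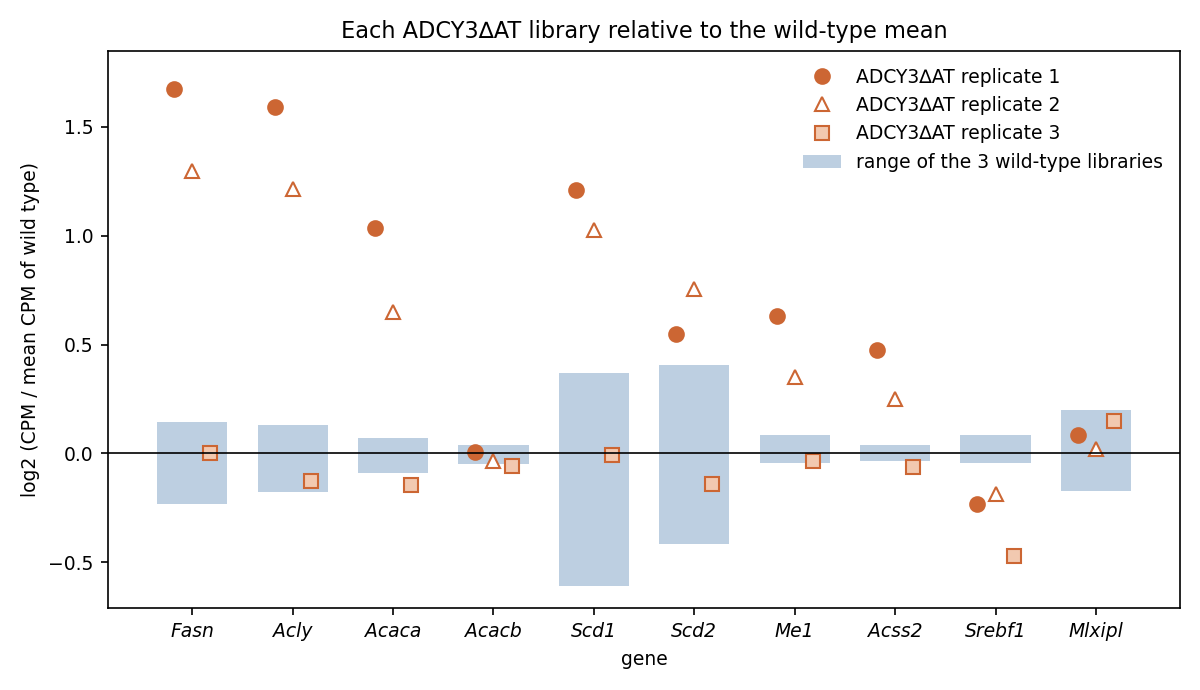
Points give the log2 ratio of each ADCY3∆AT library (circle, triangle and square for replicates 1, 2 and 3) to the mean CPM of wild type, and blue boxes give the range of the 3 wild-type libraries on the same scale. Replicates 1 and 2 lie above the box for Fasn, Acly, Acaca, Scd1, Scd2, Me1 and Acss2, and replicate 3 lies inside or just under it for these genes.

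As levels per kilobase of transcript, which allow genes to be set beside each other, the order in wild type was Scd1 (647 ± 208 CPM per kb), Acacb (199 ± 6.2), Fasn (165 ± 22), Me1 (59.4 ± 3.1), Srebf1 (58.9 ± 3.0), Acaca (49.3 ± 2.8), Scd2 (43.3 ± 12.8), Acly (43.0 ± 4.5), Acss2 (40.9 ± 1.1) and Mlxipl (24.6 ± 3.3), each SD, n = 3. Me1 and Srebf1 did not differ beyond their spread, nor did Acaca, Scd2 and Acly, nor Acly and Acss2. In ADCY3∆AT the mean of Fasn (366 ± 184 CPM per kb) exceeded that of Acacb (195 ± 4.6), the reverse of wild type, but in replicate 3 of ADCY3∆AT alone Fasn stayed at its wild-type level. Together the 10 genes held 0.642% to 0.912% of all estimated counts of a wild-type library, against 1.67%, 1.46% and 0.798% for ADCY3∆AT.

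Counted over the list, 8 of the 10 genes had a positive fold change, beside 50.9% of all genes tested, and their median log2 fold change was 0.39, beside 0.00 over all genes. At an unadjusted p under 0.05 stood 5 of the 10 on the higher side (Fasn, Acly, Scd1, Acaca and Me1), beside 5.23% of all genes, and 1 on the lower side (Srebf1), beside 5.78%. The genes were picked with earlier results of these libraries known, so these counts are descriptive. Without ADCY3∆AT replicate 3, edgeR called 3 of the 10 higher, Fasn (log2 fold change 1.50, adjusted p = 0.0134), Acly (1.42, adjusted p = 0.0125) and Acaca (0.85, adjusted p = 0.0367), beside 0.145% of all genes called higher in that fit. Because replicate 3 was already seen at wild-type level for these genes, leaving it out raises the fold change and narrows the spread. Those 3 calls restate the pattern and are no separate evidence. With no low-count filter, edgeR called Fasn alone of the 10 higher (adjusted p = 0.0485), beside 0.192% of genes. Without ADCY3∆AT replicate 1 or 2 the log2 fold change of Fasn was 0.79 or 1.07 and did not pass (edgeR adjusted p = 0.521 and 0.677).

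**Figure D3:**
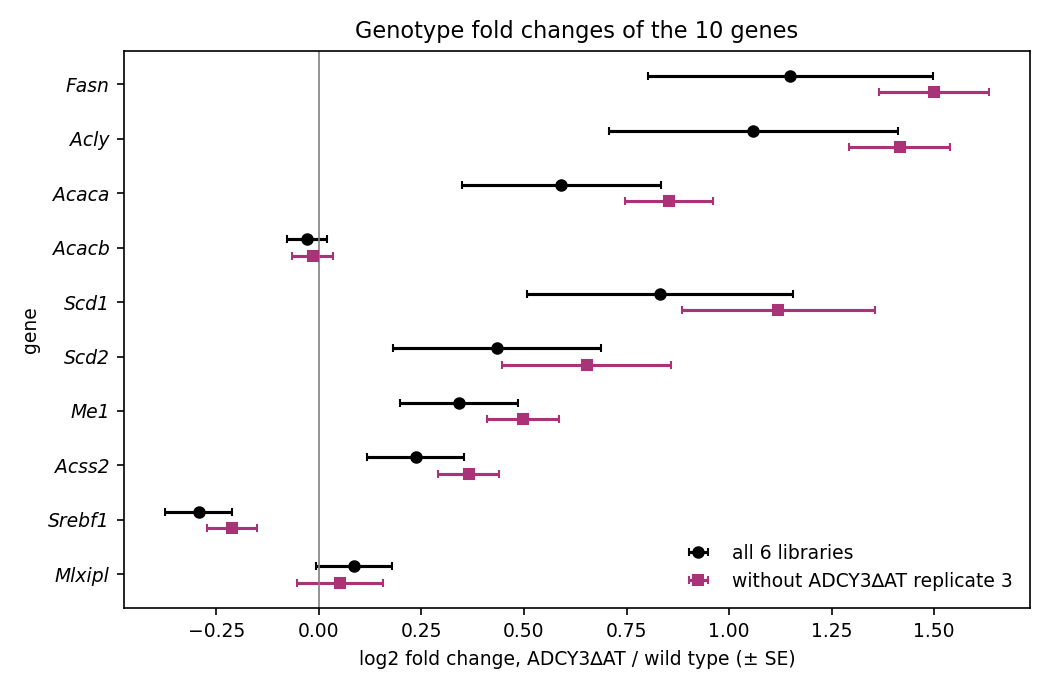
The log2 fold change of ADCY3∆AT relative to wild type is plotted with its standard error for each gene, from all 6 libraries (black circles) and without ADCY3∆AT replicate 3 (purple squares). Leaving that library out moved Fasn from 1.15 to 1.50 and Acly from 1.06 to 1.42, while Acacb and Mlxipl stayed near 0 and Srebf1 went from -0.29 to -0.21.

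The ADCY3∆AT libraries differed most among themselves for Acly and Fasn. The SD of log2 CPM was larger in ADCY3∆AT than in wild type for 8 of the 10 genes, beside 53.0% of all genes tested. For Fasn it was 0.20 in wild type and 0.88 in ADCY3∆AT, a value larger than that of 97.7% of all genes, and for Acly 0.16 and 0.90, larger than that of 97.9%. The SD ratio of ADCY3∆AT to wild type was 7.28 for Acaca, 7.14 for Acss2, 5.83 for Acly, 4.55 for Me1 and 4.40 for Fasn, 2.11 for Srebf1, and only 1.31 for Scd1 and 1.13 for Scd2, whose wild-type libraries were themselves uneven. Acacb (0.05 in wild type, 0.03 in ADCY3∆AT) and Mlxipl (0.19 and 0.07) had the smaller SD in ADCY3∆AT. The median SD in ADCY3∆AT was 0.40 over the 10 genes and 0.14 over all genes.

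**Figure D4:**
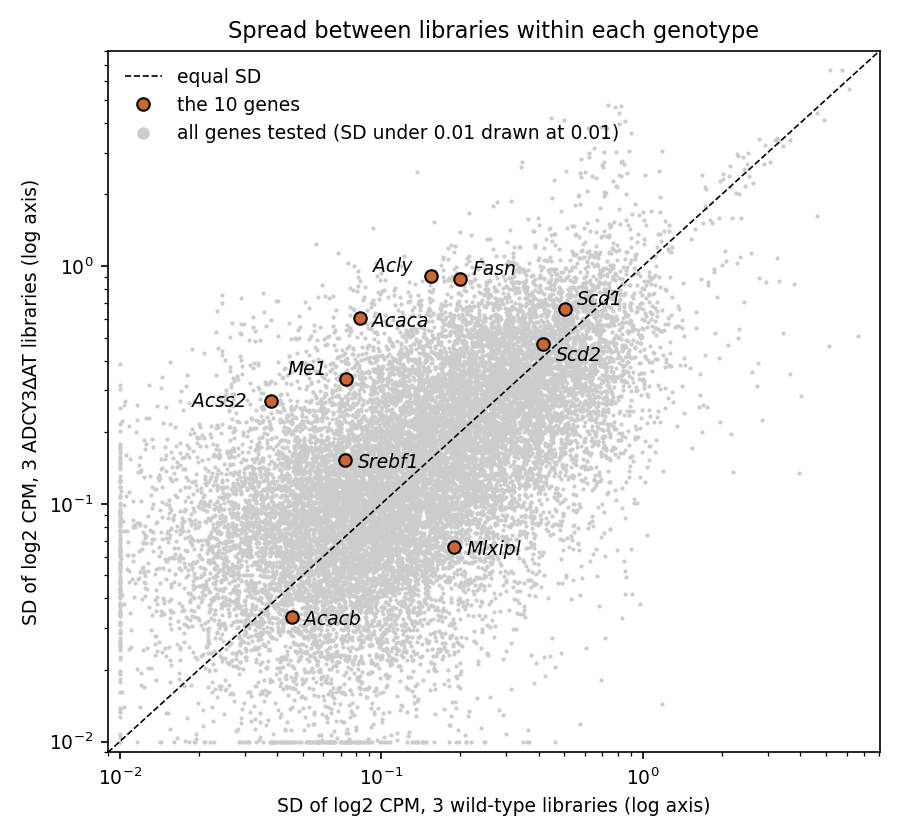
Each grey point is 1 of the 18114 genes tested, at its SD of log2 CPM over the wild-type libraries (x, log axis) and over the ADCY3∆AT libraries (y, log axis), and orange points are the 10 genes; the smallest SDs are drawn at the edge. Acly, Fasn, Acaca, Me1 and Acss2 lie far above the dashed line of equal SD, Srebf1, Scd1 and Scd2 closer to it, and Mlxipl and Acacb below it.

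The same libraries were high for most of the enzymes. ADCY3∆AT replicate 1 exceeded replicate 2, and replicate 2 exceeded replicate 3, in 7 of the 10 genes (Fasn, Acly, Acaca, Scd1, Me1 and Acss2, and by a few percent Acacb), beside 19.2% of all genes. Within wild type, replicate 2 was the lowest library for 7 of the 10 (Fasn, Acly, Acaca, Scd1, Scd2, Me1 and Acss2), beside 33.3% of all genes, although for Me1 by less than 1 CPM. The ratio of replicate 1 to replicate 3 within ADCY3∆AT was 3.30 for Acly, 3.19 for Fasn, 2.33 for Scd1, 2.27 for Acaca, 1.58 for Me1 and 1.45 for Acss2. With the libraries in 2 clusters by Fasn (1410 to 1832 CPM, and 4080 and 5303 CPM), a correlation between these genes over 6 libraries rests on 2 of them, and none was tested.

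Likeness to the Fasn pattern was ranked by Pearson's r of log2 CPM over the 6 libraries, as a description, among the 4133 other genes whose mean log2 CPM reached 5. The first 8 were Acly (r = 0.997), the receptor kinase Grk5 (0.994), the histidine methyltransferase Setd3 (0.992), the glycolytic enzyme Pkm (0.989), transketolase Tkt (0.989), Cyb5r3, a reductase of the desaturation electron chain (0.987), Pnpla3, a lipid droplet protein (0.986), and Acaca (0.985). Of the remaining members of the 10, Acss2 ranked 25, Me1 35, Scd1 96, Scd2 331, Acacb 1822, Mlxipl 1950 and Srebf1 2322. A high r says nothing of size: Setd3 had 84.8 to 85.3 CPM across wild type against 84.7 to 87.6 CPM across ADCY3∆AT. The 6 points share the 2 high libraries named above.

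Genes around the pathway were described from 6 lists, of which 62 of 64 genes were tested, 0 passed in edgeR, and 11 had an unadjusted p under 0.05, with 5 higher and 6 lower, beside 5.23% and 5.78% of all genes. Leaving out 1 library moved the 11 to 2 without ADCY3∆AT replicate 2, 5 with replicate 1 of that group left out and 22 with its replicate 3 left out, and to 6 and 7 without wild-type replicates 2 and 3. Over all genes the number under 0.05 moved too, from 1995 of 18114 with all 6 libraries. It became 1332 of 18461, 1740 of 18537 and 2607 of 18582 without ADCY3∆AT replicates 2, 1 and 3. Without wild-type replicates 2 and 3 it became 1339 of 18610 and 1790 of 18528. The counts per list that follow are small and come from all 6 libraries. They are read against the 5.23% and 5.78% of that fit. In the supply of citrate and NADPH, 1 of 10 was higher at that level and none lower. Slc25a1, the mitochondrial citrate carrier, had 99.2, 88.5 and 96.3 CPM across wild type against 147, 117 and 94.9 CPM across ADCY3∆AT (log2 fold change 0.34 ± 0.14, SE, edgeR adjusted p = 0.426). ADCY3∆AT replicate 3 again lay within the wild-type range. Tkt and Taldo1 of the non-oxidative pentose phosphate pathway had 0.34 ± 0.15 and 0.16 ± 0.10 (SE, edgeR adjusted p = 0.463 and 0.575). Of the accessory and elongation genes 1 of 11 was higher, Thrsp (Spot 14), a lipogenic protein induced by thyroid hormone, with 345, 316 and 311 CPM across wild type against 552, 459 and 322 CPM across ADCY3∆AT (0.45 ± 0.17, SE, edgeR adjusted p = 0.382). Fads1, a desaturase of polyunsaturated fatty acids, had 0.28 ± 0.12 and the elongase Elovl6 -0.17 ± 0.07 (SE, edgeR adjusted p = 0.461 and 0.474).

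Of 13 genes that process or partner SREBP, LXR and ChREBP, 2 were lower at an unadjusted p under 0.05 (5.78% of all genes were) and none higher (5.23%). Mlx, the obligate partner of ChREBP, had 24.2, 28.1 and 23.5 CPM across wild type against 21.3, 21.7 and 22.4 CPM across ADCY3∆AT (log2 fold change -0.21 ± 0.08, SE, edgeR adjusted p = 0.376). Its groups did not overlap, as for 8.83% of all genes on the lower side, and it was named for its low p. Insig2, which holds SREBP in the endoplasmic reticulum, had -0.13 ± 0.06, and Trib1, a pseudokinase that limits lipogenesis in mouse liver, had -0.30 ± 0.14 (SE, edgeR adjusted p = 0.444 and 0.482). Among 9 genes of AMP-activated protein kinase and malonyl-CoA control, 2 were lower at that level and none higher, beside the same 5.78% and 5.23%. Both catalytic subunits of that kinase, which inactivates the carboxylases by phosphorylation, were among them: Prkaa2 had 37.5, 41.2 and 42.6 CPM across wild type against 31.7, 33.1 and 36.3 CPM across ADCY3∆AT (-0.26 ± 0.07, SE, edgeR adjusted p = 0.263). Prkaa1 had -0.19 ± 0.06, and the regulatory subunit Prkab2 0.15 ± 0.09 (SE, edgeR adjusted p = 0.346 and 0.599). Like Mlx, the genes Insig2, Prkaa2 and Prkaa1 were lower in ADCY3∆AT without overlap. Prkab2 was higher without overlap, as were 7.68% of all genes.

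ChREBP targets outside the 10 genes had a median log2 fold change of 0.30, with 2 of 6 tested higher at an unadjusted p under 0.05, beside 5.23% of all genes, and none lower, beside 5.78%. Txnip, a brake on glucose uptake, had 493, 527 and 551 CPM across wild type against 806, 653 and 587 CPM across ADCY3∆AT (log2 fold change 0.38 ± 0.11, SE, edgeR adjusted p = 0.288). It lay above wild type in all 3 libraries, as did 7.68% of all genes, and it too was named for its low p. DESeq2 called Txnip higher (adjusted p = 0.0262), as it did 0.449% of the genes it tested. Pnpla3 had 45.2, 37.6 and 46.9 CPM across wild type against 85.4, 65.9 and 40.0 CPM across ADCY3∆AT (0.56 ± 0.23, SE, edgeR adjusted p = 0.431), the arrangement of Fasn. Arrdc4, a relative of Txnip, had 0.32 ± 0.15 (SE, edgeR adjusted p = 0.509). Cholesterol synthesis, the neighbouring SREBP-2 pathway, had a median of 0.00 over 13 genes, with 1 higher and 2 lower at that level, again beside 5.23% and 5.78%. Lss, which closes the sterol rings, had 0.19 ± 0.07 and squalene epoxidase Sqle -0.20 ± 0.08 (SE, edgeR adjusted p = 0.353 and 0.437). Lss and, of the lists above, Fads1 lay higher in ADCY3∆AT without overlap, and Elovl6 lower without overlap. Of all genes 7.68% and 8.83% did so, and these genes too were named for their low p.

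**Figure D5:**
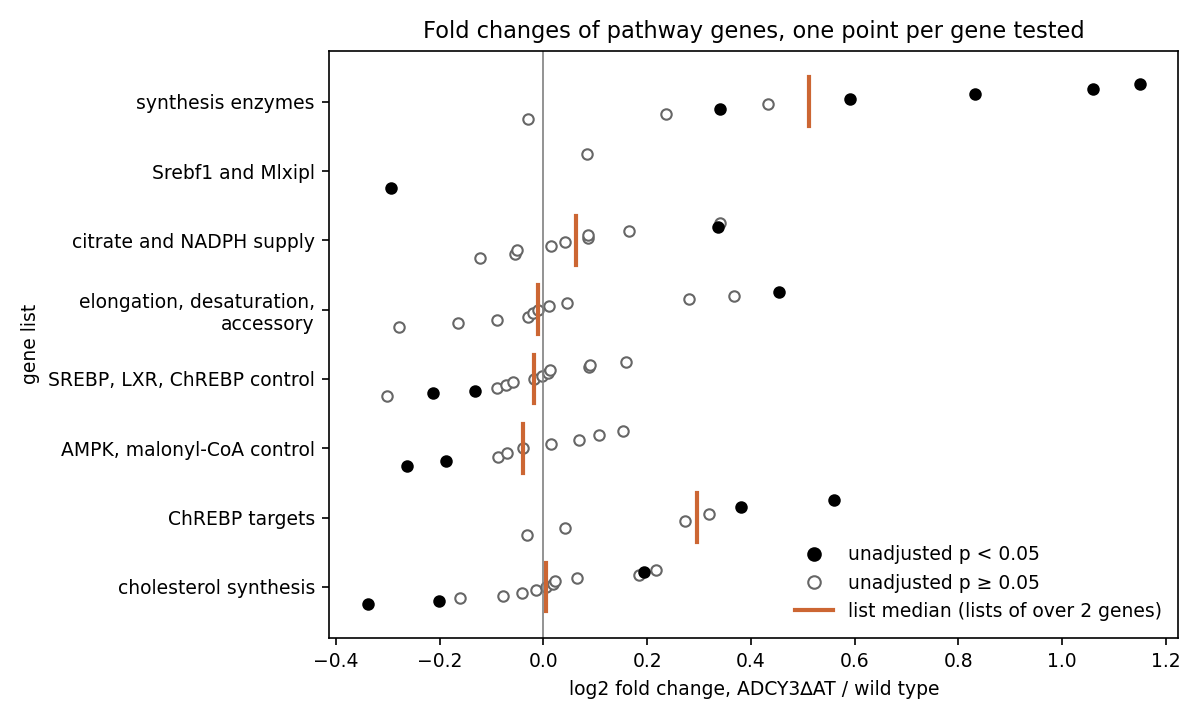
Each point is the log2 fold change (ADCY3∆AT relative to wild type) of 1 tested gene, in rows by list; filled points have an unadjusted p under 0.05, and orange bars mark medians of lists with more than 2 genes. The synthesis enzymes have the highest median, 0.51, followed by the ChREBP targets at 0.30, and the other 5 medians lie between -0.04 and 0.06.

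Markers of other cells were read in the same libraries. The summed CPM of 14 skeletal muscle markers was 2094, 1323 and 3951 for wild type against 8.03, 246 and 516 for ADCY3∆AT, all 14 had a negative fold change, and none was at 0 in all libraries. Within ADCY3∆AT the muscle sum was lowest in replicate 1, where most enzymes were highest. Within wild type it was lowest in replicate 2, where most enzymes were also lowest. The part of muscle in the result was not tested. With those 14 genes removed before scaling, the log2 fold change of Fasn was 1.15 and that of Srebf1 was -0.29, as in the full table. That removal leaves muscle RNA counted in other rows untouched, so it cannot show what part muscle had. The 8 general adipocyte markers summed to 8774 to 8927 CPM across wild type against 9531, 8798 and 8445 CPM across ADCY3∆AT, with 5 positive and 3 negative fold changes. The leptin gene Lep, a white adipocyte marker, had 5.67, 4.50 and 9.49 CPM across wild type against 22.9, 17.4 and 2.30 CPM across ADCY3∆AT, above every wild-type library in replicates 1 and 2 and below every one in replicate 3. The 6 white adipocyte markers split 3 positive and 3 negative and summed to 38.1 to 53.0 CPM in wild type, 27.6 to 68.0 CPM in ADCY3∆AT. The part of adipocyte and white adipocyte markers in the result was not tested.

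Of 8 epithelial and sebaceous markers 6 were too low to test, Krt5 was listed at 0 in every library, and Krt14 and Epcam were at most 0.0547 and 0.0813 CPM. The hepatocyte marker Alb was at most 0.182 CPM, and 4 hepatocyte markers summed to 0.875 to 1.12 CPM and 0.656 to 0.752 CPM. The 8 epithelial and sebaceous markers summed to 8.20 to 10.7 CPM for wild type and 9.61 to 10.5 CPM for ADCY3∆AT, nearly all of it from Krt79 (8.05 to 10.1 CPM and 9.23 to 10.2 CPM), and Mc5r was at most 0.568 CPM. The groups overlapped in the sum and in Krt79, whose part in the result was not tested. Summed CPM across wild type against ADCY3∆AT was 92.4 to 154 and 108 to 164 for 8 macrophage markers, 944 to 1012 and 1017 to 1084 for 7 endothelial markers, 351 to 434 and 422 to 460 for 8 fibroblast markers, 10.7 to 18.6 and 16.4 to 40.8 for 8 lymphocyte markers, and 223 to 229 and 208 to 232 for 5 Schwann cell markers. Of these 5 sums, that of Schwann cells alone fell from ADCY3∆AT replicate 1 to 2 to 3, as the adipocyte and white adipocyte sums also did. Its replicates 2 and 3 (216 and 208 CPM) lay under every wild-type library, unlike Fasn. The lymphocyte sum had 18.6, 10.7 and 15.8 CPM across wild type against 33.9, 40.8 and 16.4 CPM across ADCY3∆AT. As for Fasn, its replicates 1 and 2 lay above every wild-type library and replicate 3 within the wild-type range. Besides the brown fat, skeletal muscle and hepatocyte sums given above, all lower in ADCY3∆AT, the endothelial sums of the groups did not overlap either. Among these 5 lists that held for endothelial markers alone, and the part of any of these cells in the result was not tested. Positive fold changes numbered 6 of 8, 5 of 7, 7 of 8, 5 of 5 tested and 1 of 5 in these lists.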

How the data were processed

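The values the authors deposited are estimated counts for each Ensembl gene, without normalisation, and 31.6% of them are not whole. Per the submitters' processing notes the tools were Salmon, StringTie and edgeR with build GRCm38; settings are not given in the sources read. Column headers matched the sample descriptions, with 0 left unmapped, and gene IDs were matched to GENCODE M21 symbols for 54131 of 54385 rows. The other 254 rows (median share of a library 0.0271%) were kept under their IDs.

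Estimated counts were rounded, filtered with filterByExpr and scaled with TMM. Genotype was tested with edgeR 4.0.16 (R 4.3.3), quasi-likelihood F test, Benjamini-Hochberg adjustment over all genes, threshold 0.05. Standard errors are those implied by F, and log2 CPM used a prior count of 2. Levels per kb used the longest APPRIS principal transcript. The test was tried on simulated counts. Alternatives were RLE factors, library totals, removal of muscle markers, DESeq2 1.42.0, limma 3.58.1 voom, other low-count filters, a threshold of 0.1, each library left out, and the replicate number as a block. Library totals, 44826777 to 54933588, make counting error small beside the spread between libraries. No 2 libraries of a group matched to within counting noise, with a chi-square per degree of freedom of 24.1 or more.

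Members and lists were chosen with earlier results of these data known. All members were named, with the 3 lowest p-values of each pathway list and the 8 genes most like Fasn. A gene that this rule names is not reported here. Lep, Krt5, Krt14, Epcam, Krt79, Mc5r, Alb and Ucp1 were named from the marker lists after their values had been seen. Adcy3 was named as the target. Correlations between members were not tested, since 2 libraries stood apart.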

Additional observations from a re-analysis of the deposited data

How the results depend on the processing

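The edgeR count over all genes was 1, and it became 232 in DESeq2, 214 with no low-count filter, 2 in limma voom, 3 with the replicate block, and 1 to 66 when 1 library was left out, the 66 without ADCY3∆AT replicate 3. Of the 10 members 0 were called, against 1 in DESeq2 (Srebf1), 1 with no low-count filter (Fasn), and 0 to 3 with 1 library left out. Members at an unadjusted p under 0.05 numbered 6, and 2 to 8 with 1 library left out: 3 without wild-type replicate 2 or 3, 2 without ADCY3∆AT replicate 1, 3 without replicate 2 and 8 without replicate 3. Over all genes that number moved too. It was 1995 of 18114 with all 6 libraries, and 1339 of 18610 and 1790 of 18528 without wild-type replicates 2 and 3. Without ADCY3∆AT replicates 1, 2 and 3 it was 1740 of 18537, 1332 of 18461 and 2607 of 18582. Pathway genes at that level numbered 11, and 2 to 22 with 1 library left out (an alternative added after the data had been seen). All 10 members kept the sign of their fold change in all 14 alternative fits, and the log2 fold change of Fasn ranged from 0.79 to 1.50. The number of members with the larger SD in ADCY3∆AT was 8 under RLE factors, library totals and a prior count of 0.5, and the number with replicate 1 above 2 above 3 was 7, or 6 with library totals. Leaving out libraries was not run for these 2 counts, nor for the correlations between members, which were not tested. Same-numbered libraries did not deviate together (r = -0.09, -0.13 and -0.09), and no library correlated best with its own number, so the numbers were not taken to pair libraries. With 3 libraries a group, the size of the enzyme differences depends on which libraries are included. For the desaturases this held for both groups. The log2 fold change of Scd1 was 0.60 to 1.06 with 1 wild-type library left out and 0.60 to 1.12 with 1 ADCY3∆AT library left out. That of Scd2 was 0.26 to 0.69 and 0.24 to 0.65. Fasn ran from 1.05 to 1.23 with 1 wild-type library left out, a narrower range than with 1 ADCY3∆AT library left out.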
